A study of Mus musculus with 23 samples.

Results

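Hearts of mice given a high-fat diet together with L-NAME were set against hearts of chow-fed mice, across all measured genes, in 8 of the 23 whole-heart RNA samples of a study with 2 mouse models of heart failure. The 8 samples were taken by their labels, and all belong to 1 sequencing run. The 4 treated animals (HFD+L-NAME) were wild-type C57BL/6J mice. Starting at 10 weeks of age they ate a diet in which fat gave 60 kcal% and drank water holding 0.5 g/L of L-NAME, which inhibits nitric oxide synthases, over 15 weeks. The 4 controls (chow) were wild-type mice of that strain and age on standard chow without the inhibitor. In either group replicates 1 and 2 were male and replicates 3 and 4 female. Diet and inhibitor were given only together, so their effects cannot be told apart. The remaining 15 samples, of db/db mice with aldosterone pumps (n = 8) and their sham controls (n = 7), came from another run and enter only a comparison of the models. Those mice started at 12 weeks of age and were followed over 4 weeks, with aldosterone at 0.3 µg/h in the treated group only. Age and length of treatment thus differ between the models as well.

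The working heart draws most of its energy from fatty acids. They reach cardiomyocytes through lipoprotein lipase, which splits circulating triglyceride at the capillary wall, cross the cell membrane with the help of CD36 and enter mitochondria as carnitine esters. Fatty acids also bind nuclear receptors of the PPAR family, which raise transcription of genes for their uptake, storage and oxidation and of Pdk4, the kinase that restrains pyruvate oxidation. L-NAME lowers nitric oxide in the vessel wall and raises blood pressure.

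The 8 libraries held 21874830 to 23982811 recovered counts. Chow libraries averaged 23.6 ± 0.280 M counts (SD, n = 4) and HFD+L-NAME libraries 22.7 ± 0.591 M, and every treated library lay below every control (exact 2-sided permutation test, p = 0.0286, the smallest this design allows, adjusted p = 0.171 over the 6 measures tested). Transcripts of the mitochondrial genome made up 48.1 ± 1.40% of counts in chow and 48.4 ± 3.35% in HFD+L-NAME hearts. Cardiomyocyte markers were abundant in every library, with Myh6 at 224580 to 318936 normalised counts and Tnni3 at 66839 to 96394. Of 18 cardiomyocyte genes 0 passed the treatment test in limma or limma voom. An unadjusted p under 0.05 in limma was reached by 7 of the 18, against 15.3% of all genes tested. The skeletal muscle myosin Myh4 had no count, and the lung marker Sftpc had at most 2.92. Each label gives a separate whole heart and says nothing more on independence, so a p-value here reflects spread among these hearts only.

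Of 13801 genes averaging at least 10 normalised counts, 163 rose and 138 fell in HFD+L-NAME hearts (limma, adjusted p under 0.05), 1.18% and 1.0% of those tested, or 2.18% together. An unadjusted p under 0.05 was reached by 2108 (15.3%), the share to set beside such counts given for lists below. Most changes were small. Their median size on the log2 scale was 0.53 among the rises and 0.49 among the falls, against 0.11 among all genes tested. With no size factors 106 rose and 163 fell, and with the deposited values 94 and 147, where the median of all genes moved by -0.05 in either case. With no variance trend 37 rose and 30 fell, with no sex covariate 101 and 85, and with all 23 libraries in 1 fit 92 fell. Of the 63 genes named by rule that passed, 34 did not pass with no variance trend. A log2 change of at least 1 in size was reached by 36 of the rises and 25 of the falls. The groups did not overlap for 135 of the rises and 127 of the falls, while 8.2% of all genes tested had groups that did not overlap (3.96% higher and 4.24% lower). All 301 changes had the same sign in males and females, as had 7989 of all 13801 genes tested. The 301 were selected by a fit over both sexes, so that this count is a description. Leaving out a library changed the number of rises to between 82 (without chow replicate 3) and 170 (without HFD+L-NAME replicate 2), and of falls to between 60 (without chow replicate 1) and 137 (without HFD+L-NAME replicate 2). Rises numbered 90, 99, 106 and 108 without chow replicate 1, chow replicate 4, HFD+L-NAME replicate 1 and HFD+L-NAME replicate 4. Falls numbered 71, 67, 69, 86, 90 and 79 without chow replicates 2, 3 and 4 and HFD+L-NAME replicates 1, 3 and 4. A core of 101 genes, 58 up and 43 down, passed whichever of the 8 libraries was omitted. Of the 301 genes, 264 passed in the authors' deposited table at the same threshold, all in the same direction, which is 87.7% of the genes called here and 73.5% of the 359 called there.

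**Figure D1:**
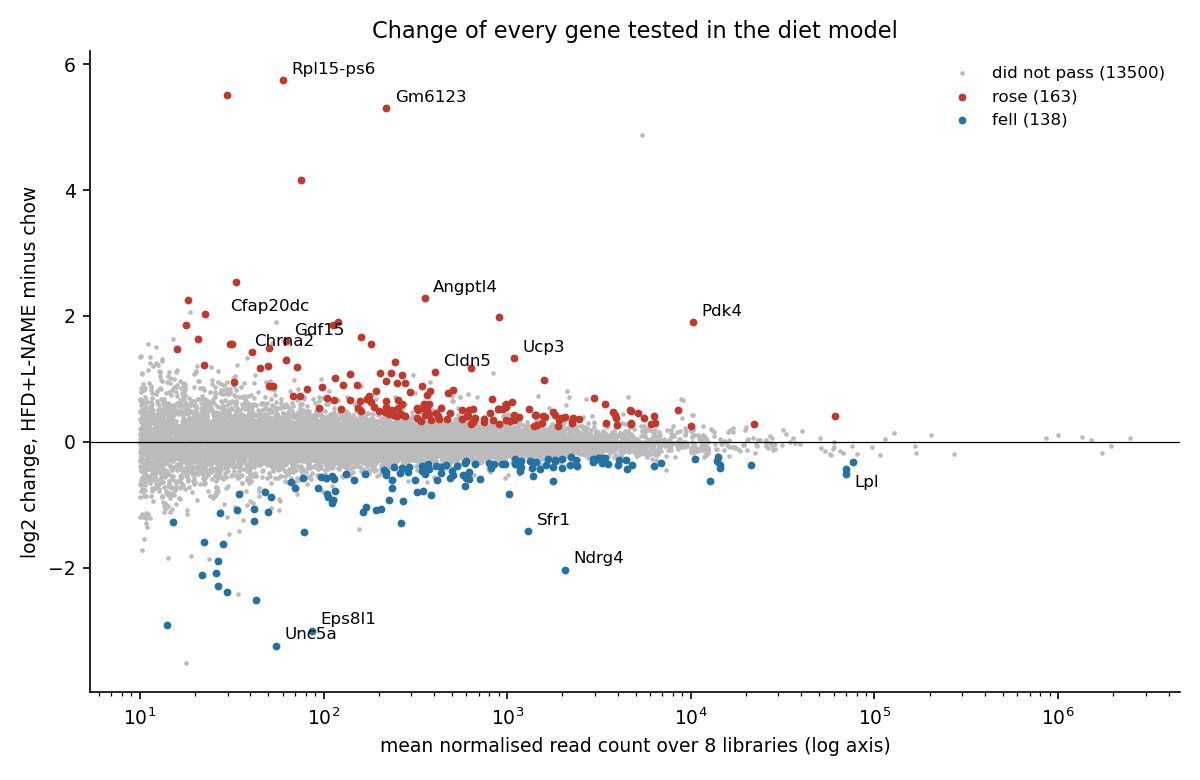
Log2 change of each of the 13801 genes tested (vertical axis, HFD+L-NAME minus chow, n = 4 each) against its mean normalised count over the 8 libraries (log axis). The 163 genes that rose are red and the 138 that fell are blue, and most changes lie within 1 log2 unit of 0.

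Fatty acid responsive genes were among the rises. Of 38 tested members of a list of fatty acid responsive PPAR targets, 17 rose and 1 fell, with a median log2 change of 0.25 against -0.000556 over all genes tested. The members that passed were 47.4% of those tested, against 2.18% over all genes. The groups did not overlap for 25 members, against 8.2% of all genes tested, and 36 members lay above 0. The list was chosen with earlier results of these data known, so these counts are a description. In bulk RNA, fewer cells of a type and less RNA per cell cannot be told apart. In 4 of the genes that rose, the RefSeq promoter (GRCm38.p6, 250 bases before to 50 after the transcription start, on the gene's strand) holds a near match to the direct repeat that PPAR binds with its partner RXR. These promoters are printed because the list is named for that receptor and their genes moved together, and capitals mark the match.
Ucp3 (chr7:100472741-100473040, plus strand): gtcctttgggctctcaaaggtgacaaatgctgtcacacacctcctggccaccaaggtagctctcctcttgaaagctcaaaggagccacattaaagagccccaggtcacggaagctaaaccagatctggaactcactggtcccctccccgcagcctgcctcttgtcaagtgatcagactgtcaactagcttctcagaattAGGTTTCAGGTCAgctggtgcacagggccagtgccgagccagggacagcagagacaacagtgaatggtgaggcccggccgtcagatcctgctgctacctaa
Plin2 (chr4:86670010-86670309, minus strand): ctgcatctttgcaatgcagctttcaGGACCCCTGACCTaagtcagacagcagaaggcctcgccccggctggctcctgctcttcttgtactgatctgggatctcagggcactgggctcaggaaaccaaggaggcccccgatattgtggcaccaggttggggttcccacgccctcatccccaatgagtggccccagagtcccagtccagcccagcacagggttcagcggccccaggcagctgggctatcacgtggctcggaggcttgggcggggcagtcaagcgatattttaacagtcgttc
Slc25a20 (chr9:108661886-108662185, plus strand): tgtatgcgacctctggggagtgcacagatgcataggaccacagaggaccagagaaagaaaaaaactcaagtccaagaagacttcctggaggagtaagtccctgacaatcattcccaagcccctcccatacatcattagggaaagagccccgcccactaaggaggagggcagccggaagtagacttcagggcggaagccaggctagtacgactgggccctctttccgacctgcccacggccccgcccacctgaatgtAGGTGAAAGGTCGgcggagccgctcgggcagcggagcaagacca
Cd36 (chr5:17835847-17836146, minus strand): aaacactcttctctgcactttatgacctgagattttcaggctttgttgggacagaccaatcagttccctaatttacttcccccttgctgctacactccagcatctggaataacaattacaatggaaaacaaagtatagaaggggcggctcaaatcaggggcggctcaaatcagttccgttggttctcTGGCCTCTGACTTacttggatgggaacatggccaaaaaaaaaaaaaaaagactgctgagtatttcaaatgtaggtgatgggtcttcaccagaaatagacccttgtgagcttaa
The motif searched was AGGTCA, any 1 base, and AGGTCA again, on both strands, with up to 2 letters differing. Relative to the transcription start, the match lies at -51 to -39 on the same strand in Ucp3, at -225 to -213 on the opposite strand in Plin2, at 7 to 19 on the same strand in Slc25a20 and at -63 to -51 on the opposite strand in Cd36, each with 2 letters differing. Of the 38 list genes tested, 30 had a promoter in the table, and 4 of their 34 windows (11.8%) held a match, the 4 printed, against 3.86% of all 32851 windows of that length. A match describes the letters and is not evidence of binding.

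Pdk4 (chromosome 6, 5483351 to 5496309, minus strand), the kinase that brakes pyruvate oxidation, had 4619, 6367, 3780.0 and 2536 normalised counts in the chow hearts and 14437, 27081, 12356 and 11516 in the HFD+L-NAME hearts. All treated hearts were above all controls, with HFD+L-NAME replicate 2 highest, and it rose by 1.91 ± 0.18 (SE) on the log2 scale (adjusted p = 0.000161). Angptl4, a secreted inhibitor of lipoprotein lipase, had 134, 182, 57.8 and 95.5 in chow and 627, 1005, 513 and 242 in treated hearts, a rise of 2.28 ± 0.23 (adjusted p = 0.000339). Its groups did not overlap. Ucp3, a mitochondrial carrier whose promoter is printed above, had 474, 773, 681 and 573 in chow and 1779, 1479, 1522 and 1415 in treated hearts, a rise of 1.33 ± 0.13 (adjusted p = 0.000256). The male and female changes were 1.87 and 1.95 for Pdk4 and 1.42 and 1.23 for Ucp3.

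**Figure D2:**
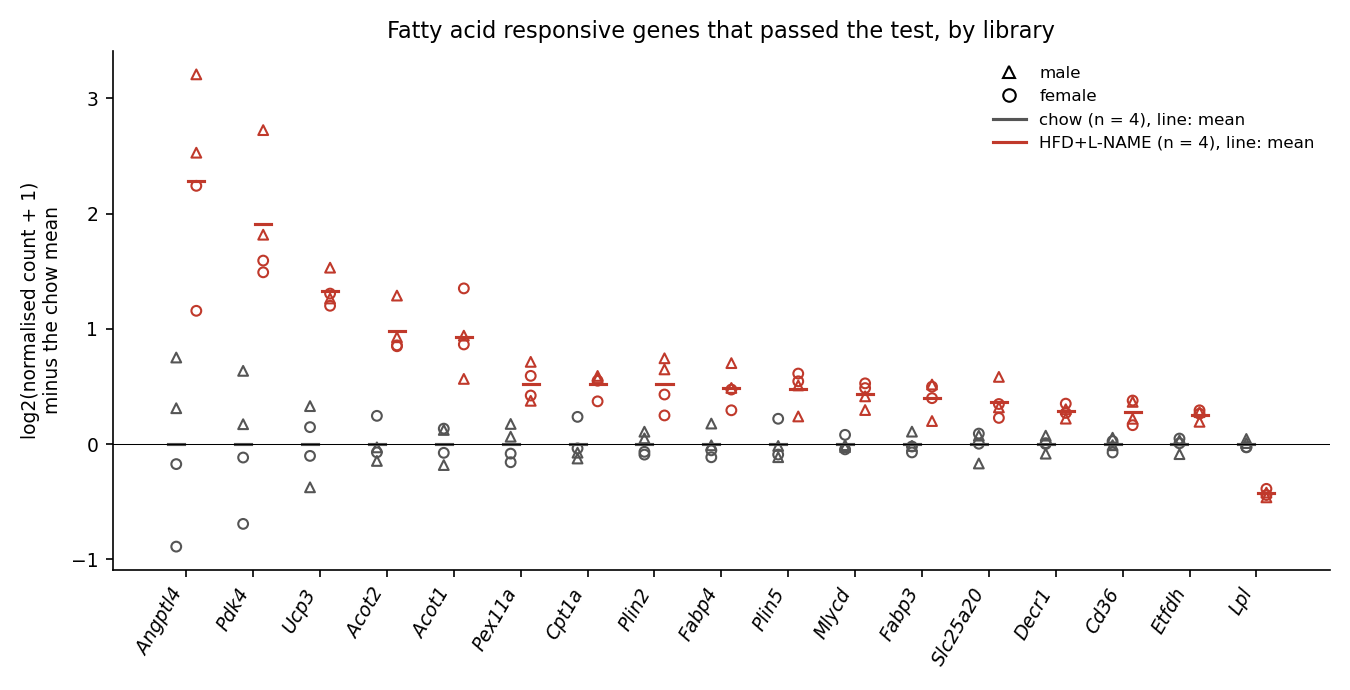
Fatty acid responsive genes that passed the test (17 of the 18 are drawn), in each library, as log2(normalised count + 1) minus the mean of the 4 chow hearts (triangles male, circles female, short lines group means). The changes run from 2.28 for Angptl4 to 0.26 for Etfdh among the genes that rose, and Lpl is the member that fell.

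Genes of entry, activation and storage rose by less. The thioesterases Acot2 and Acot1, which split fatty acyl-CoA, rose by 0.98 ± 0.11 and 0.93 ± 0.13, although reads of these closely related genes may be assigned to either. Cpt1a, a carnitine palmitoyltransferase at the entry to mitochondria, went from 729 ± 85.6 (SD, n = 4) to 1043 ± 71.0 (0.52 ± 0.09, adjusted p = 0.00979). The lipid droplet coat proteins Plin2 and Plin5 rose by 0.52 ± 0.07 and 0.48 ± 0.08, the malonyl-CoA decarboxylase Mlycd by 0.43 ± 0.06 and the fatty acid binding protein Fabp4 by 0.49 ± 0.07. Fabp3, its heart muscle relative, went from 52345 ± 2825 to 69423 ± 6747 (0.40 ± 0.08, adjusted p = 0.0259). Cd36, the carnitine carrier Slc25a20, Decr1, Etfdh and the peroxisomal Pex11a rose by 0.28, 0.37, 0.29, 0.26 and 0.53. Core enzymes of beta-oxidation did not pass, with Acadm at 0.08 ± 0.06, Acadl at 0.15 ± 0.06, Acadvl at 0.05 ± 0.06 and Hadha at 0.19 ± 0.06. The muscle-type transferase Cpt1b, at 0.23 ± 0.15, did not pass either. The number of list members that rose was 11 without chow replicate 3 and 12 without chow replicate 2 or 4. It was 6 with no variance trend, 10 with the deposited values and 11 with all 23 libraries in 1 fit. Cd36 lost its call without any single library, Slc25a20 and Etfdh without 7 of the 8, Decr1 and Fabp3 without chow replicate 2, 3 or 4 or HFD+L-NAME replicate 3 or 4, and Pex11a without chow replicate 3 (highest adjusted p = 0.150 over these genes).

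Lpl, lipoprotein lipase itself (chromosome 8, 68880491 to 68907448, plus strand), moved the other way. It had 80952, 82973, 78890.1 and 78999 normalised counts in chow and 60083, 58398, 61466 and 59223 in treated hearts. Every treated heart was below every control, and Lpl fell by 0.43 ± 0.06 on the log2 scale (adjusted p = 0.00384).

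Further genes of lipid handling passed outside that list. Gpam, Hsd17b11, Ephx2 and Mgll were chosen after their values were seen. Gpam, the acyltransferase that starts triglyceride synthesis, had 2711, 2807, 2697 and 2698 in chow and 4296, 4167, 4008 and 3993 in treated hearts. The spread within each group was small beside the gap between them, and Gpam rose by 0.59 ± 0.05 (adjusted p = 7.24e-05). Hsd17b11, a dehydrogenase of lipid droplets, had 379, 407, 378 and 387 in chow and 944, 1011, 783 and 778 in treated hearts, a rise of 1.17 ± 0.08 (adjusted p = 6.76e-06). The desaturase Scd4 rose by 1.26 ± 0.12, the cytochrome P450 enzyme Cyp2b10 by 1.49 ± 0.22 and the epoxide hydrolase Ephx2 by 0.37 ± 0.05. Scd4 has close relatives with which reads may be shared. The lipases Lipe and Mgll rose by 0.51 ± 0.08 and 0.43 ± 0.07. The malic enzyme Me1, a source of NADPH, rose by 0.33 ± 0.06 and was the single call among 32 sterol and SREBP targets, whose median was -0.05. Catalase, Cat, rose by 0.31 ± 0.06 and lost its call without chow replicate 2 or 4 or HFD+L-NAME replicate 1 or 3 (highest adjusted p = 0.0696).

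Of 8 white fat genes tested 2 rose, Lipe and Nnat. Nnat, at 1.22 ± 0.28 (adjusted p = 0.0434), lost its call without chow replicate 1, 2, 3 or 4 or HFD+L-NAME replicate 1, 3 or 4 (highest adjusted p = 0.133) and in limma voom, and with no variance trend neither passed. Adipoq, the adipocyte hormone adiponectin, was below the filter on the mean, with 1.02, 2.85, 1.96 and 2.92 in chow and 16.3, 8.09, 5.94 and 7.73 in treated hearts. All treated hearts were above all controls at these low counts, and without the filter the change was 1.68 ± 0.48, adjusted p = 0.120. Lep, the adipocyte hormone leptin, had 0 in every chow heart and 2.17, 1.01, 0.989 and 1.93 in treated hearts. The adipocyte lipid droplet protein Plin1 had 3.05, 7.59, 4.90 and 11.7 in chow and 21.7, 14.1, 4.95 and 7.73 in treated hearts, with overlap. Cfd, another adipocyte marker, had a lower mean after treatment. It had 1.02, 38.9, 17.6 and 58.5 in chow and 39.1, 16.2, 2.97 and 4.83 in treated hearts, with overlap. Of the 8 white fat genes tested, 5 lay above 0. The list's summed level ran from 1262 to 1751 in chow and 1573 to 2067 in HFD+L-NAME hearts, and its part in the lipid results was not tested.

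Of 33 glucose and insulin genes 2 fell and 0 rose, with a median of -0.11. Slc2a4, the glucose transporter GLUT4, had 7605, 7813, 7098 and 7972 in chow and 5959, 5715, 6366 and 6220.5 in treated hearts (-0.33 ± 0.06, adjusted p = 0.0140). Akt1, a kinase that relays the insulin signal, had 4557, 4755, 4633 and 4275 in chow and 3238, 3933, 3443 and 3462 in treated hearts (-0.37 ± 0.07, adjusted p = 0.0130). Groups did not overlap for either gene. With no variance trend neither passed. Slc2a4 lost its call without chow replicate 1 or 4 (highest adjusted p = 0.0561) and Akt1 without chow replicate 3 (adjusted p = 0.0567). Without chow replicate 2 the list held 3 falls and 1 rise. Mlxipl, the glucose-sensing transcription factor ChREBP, chosen after its value was seen, fell by 0.35 ± 0.06.

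Several mitochondrial enzymes fell too, and these were chosen after their values were seen. Sdha, the catalytic subunit of succinate dehydrogenase, had 15664, 16099, 16215 and 16787 in chow and 12159, 11453, 13909 and 12817 in treated hearts. The groups did not overlap, it fell by 0.37 ± 0.06 (adjusted p = 0.00664), and it passed whichever library was omitted. Pdhb of the pyruvate dehydrogenase complex changed by -0.39 ± 0.07, the ketone-using transferase Oxct1 by -0.30 ± 0.06, the muscle cytochrome oxidase subunit Cox6a2 by -0.32 ± 0.07 and the aspartate aminotransferase Got2 by -0.24 ± 0.06. In the breakdown of branched-chain amino acids, Bckdhb changed by -0.36 ± 0.07, the activating phosphatase Ppm1k by -0.57 ± 0.12, Acadsb by -0.40 ± 0.08 and Aldh6a1 by -0.25 ± 0.05. Calls were lost for Bckdhb without chow replicate 2 or 4 or HFD+L-NAME replicate 1, for Acadsb without chow replicate 1, 2 or 3 or HFD+L-NAME replicate 4, for Ppm1k without chow replicate 1, 2 or 4 or HFD+L-NAME replicate 1 or 4, and for Pdhb, Oxct1, Cox6a2, Got2 and Aldh6a1 without 6 to 8 of the 8 libraries (highest adjusted p = 0.131). Complexes I and IV were also counted whole. Of 47 complex I genes 0 passed in limma, with a median of -0.08. An unadjusted p under 0.05 was reached by 8 of them, against 15.3% of all genes tested. Of 16 complex IV genes 1 fell, 6.25% against 2.18% over all genes, with a median of -0.09. An unadjusted p under 0.05 was reached by 5 of the 16.

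Of 50 extracellular matrix genes 7 rose and 0 fell, with a median of 0.17 and 42 above 0. Col4a1 and Col4a2, neighbours on chromosome 8 that encode the chains of basement membrane collagen, moved together. Col4a1 had 8031, 7052, 6896 and 6071 in chow and 10492, 10486, 9424 and 9317 in treated hearts (0.51 ± 0.06, adjusted p = 0.00123). Col4a2 had 5903, 5418, 5437 and 4947 in chow and 7792, 7556, 6708 and 6819 in treated hearts (0.41 ± 0.06, adjusted p = 0.00253). All treated hearts were above all controls for both. The others that rose were Sparc, Fn1, Postn, Thbs1 and Mmp2. The collagen-binding Sparc rose by 0.37 ± 0.06, fibronectin, Fn1, by 0.39 ± 0.07, the protease Mmp2 by 0.43 ± 0.09 and Thbs1, an activator of TGF-beta, by 1.10 ± 0.21. Postn, a marker of activated fibroblasts, had 595, 681, 751 and 509.7 in chow and 1203, 1281, 749.8 and 877 in treated hearts. Its groups overlapped slightly and it rose by 0.68 ± 0.14 (adjusted p = 0.0251). The fibrillar collagen Col1a1 changed by 0.18 ± 0.10 (adjusted p = 0.450). The matrix genes that rose numbered 3 without chow replicate 1 and 4 without chow replicate 2 or HFD+L-NAME replicate 4. They numbered 1 with no variance trend, 4 with no sex covariate and 3 with all 23 libraries in 1 fit or with the deposited values. Postn lost its call without chow replicate 1, 2 or 4 or HFD+L-NAME replicate 1 or 4, Thbs1 without chow replicate 1, 2 or 3 or HFD+L-NAME replicate 4, Fn1 without chow replicate 1, 2 or 3 and Mmp2 without chow replicate 1, 3 or 4 or HFD+L-NAME replicate 1, 2, 3 or 4 (highest adjusted p = 0.109). Fibroblast markers summed to 32508 to 42087 in chow and 37515 to 40070.5 in HFD+L-NAME hearts, and their part in the matrix result was not tested.

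Cldn5, the tight junction claudin of endothelial cells (chromosome 16, 18776847 to 18778262, plus strand), had 316, 296, 193 and 223 in chow and 561, 709, 473 and 464 in treated hearts. Its groups did not overlap, and it rose by 1.11 ± 0.09 (adjusted p = 6.99e-05). Of 23 blood vessel endothelium genes 3 rose, Cldn5, Fabp4 and the receptor Tie1, and 0 fell, with a median of 0.21. That number was 2 without chow replicate 1, 2, 3 or 4 or HFD+L-NAME replicate 3 or 4 and 5 without HFD+L-NAME replicate 2, and 1 with no variance trend. Tie1, at 0.24 ± 0.05, lost its call without chow replicate 1, 2, 3 or 4 or HFD+L-NAME replicate 1, 3 or 4 (highest adjusted p = 0.108). The endothelial genes Pecam1, Cdh5 and Kdr, at 0.14 ± 0.08, 0.20 ± 0.06 and 0.24 ± 0.06, did not pass. The summed endothelial level was 37963 to 43488 in chow and 43736 to 49513 in HFD+L-NAME hearts, so every treated heart lay above every control, and its part in the Cldn5 change was not tested. Ednrb, an endothelin receptor, had 225, 183, 238 and 221 in chow and 374, 395, 406 and 327 in treated hearts (0.79 ± 0.10, adjusted p = 0.00216). Chosen after their values were seen, Sema3f rose by 0.77 ± 0.09 and Btnl9 by 0.59 ± 0.08.

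Of 27 nitric oxide and cGMP genes, the pathway that L-NAME targets, 0 passed in limma and 0 in limma voom. As 2.18% of all genes tested passed, 0 among 27 cannot be told apart from that share. The list's median was 0.02, and its changes ran from -1.20 to 0.52. Under other settings or with a library left out, at most 1 gene rose and 0 fell. In limma 4 had an unadjusted p under 0.05, against 15.3% of all genes tested. Nos3, the endothelial nitric oxide synthase, had 643, 594, 529.7 and 618 in chow and 655, 674, 609 and 753 in treated hearts. The groups overlapped, and the change was 0.17 ± 0.08 (adjusted p = 0.362).

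Of 22 macrophage and monocyte genes 3 rose, Adgre1, Cd68 and Laptm5, and 0 fell, with a median of 0.19, and the groups overlapped for every gene of the list. Adgre1, which encodes F4/80, had 216, 232, 146 and 131 in chow and 282, 317, 228 and 172 in treated hearts. The groups overlapped, and the change was 0.47 ± 0.11 (adjusted p = 0.0441). Cd68 rose by 0.41 ± 0.10 and Laptm5 by 0.41 ± 0.09. The macrophage genes that rose numbered 0 without chow replicate 1, 2, 3 or 4 or HFD+L-NAME replicate 1 or 3 and 1 without HFD+L-NAME replicate 2. They numbered 1 in limma voom and 0 with no variance trend, no sex covariate, all 23 libraries in 1 fit, the deposited values, total-count scaling, quantile normalization or no size factors. Their summed level was 8143 to 11014 in chow and 8379.6 to 12676 in HFD+L-NAME hearts. Lgals3, galectin-3, had 63.0, 68.3, 42.1 and 46.8 in chow and 128, 107, 81.1 and 59.9 in treated hearts (0.73 ± 0.15, adjusted p = 0.0241) and lost its call without chow replicate 1, 2 or 3 or HFD+L-NAME replicate 1 or 3. Of 45 interferon and antigen presentation genes Ifit3 alone rose (0.96 ± 0.20), and it lost its call without chow replicate 1, 3 or 4 or HFD+L-NAME replicate 1, 3 or 4. Ighm, an immunoglobulin heavy chain, was the single call among 8 B cell genes (0.62 ± 0.14, adjusted p = 0.0440) and lost it without chow replicate 1, 2, 3 or 4 or HFD+L-NAME replicate 1, 3 or 4. Of 4 T and natural killer cell genes and 6 neutrophil genes tested, 0 passed in limma or limma voom (0 and 0 at an unadjusted p under 0.05).

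**Figure D3:**
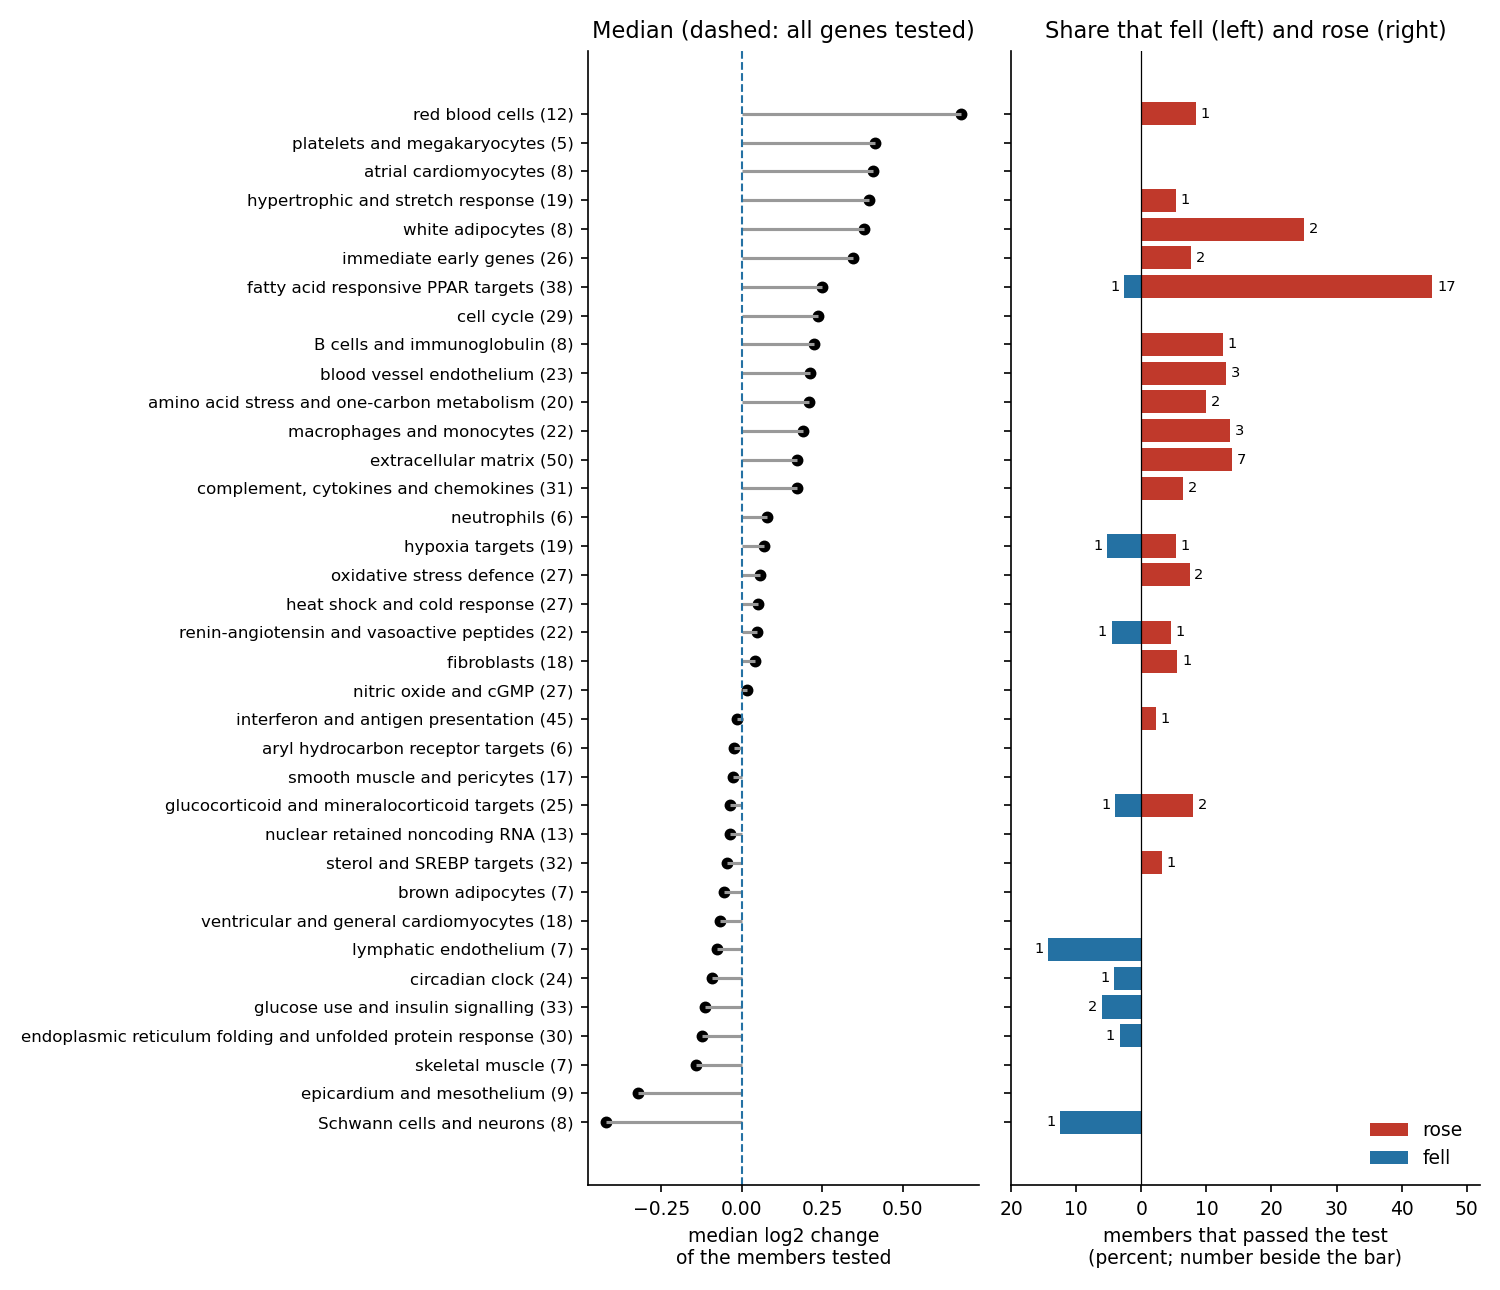
Left, median log2 change of the tested members of each gene list with at least 5 of them (number in brackets), with the median of all genes tested dashed. Right, the percent of members that fell (left of 0) or rose (right of 0), with the number beside each bar. Fatty acid responsive genes hold 17 rises.

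Red blood cell transcripts were uneven between hearts. All 12 red cell genes tested lay above 0, with a median of 0.68. An unadjusted p under 0.05 was reached by 10, against 15.3% of all genes tested. In limma 1 passed, the anion exchanger Slc4a1, and 0 passed in limma voom. Rises in the list numbered 3 without HFD+L-NAME replicate 4 or with no filter on the mean, 2 without chow replicate 4 or HFD+L-NAME replicate 2, and 0 without chow replicate 1 or 3 or HFD+L-NAME replicate 1 or 3. Slc4a1 had 8.12, 10.4, 2.94 and 10.7 in chow and 69.5, 22.2, 116 and 28.0 in treated hearts (2.54 ± 0.52, adjusted p = 0.0259), without overlap, and lost its call without chow replicate 1 or 3 or HFD+L-NAME replicate 1 or 3 (highest adjusted p = 0.0859). Haemoglobin genes took 0.0543 ± 0.0193% of counts in chow and 0.0854 ± 0.0379% in treated hearts, highest at 0.140% in HFD+L-NAME replicate 3 (exact 2-sided permutation test, p = 0.229, adjusted p = 0.686). The part of blood in the Slc4a1 result was not tested.

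A few stress genes rose. Gdf15, a hormone secreted by stressed cells, had 35.5, 33.2, 30.3 and 18.5 in chow and 80.4, 163, 68.3 and 69.6 in treated hearts. Groups did not overlap, HFD+L-NAME replicate 2 was highest, and Gdf15 rose by 1.60 ± 0.23 (adjusted p = 0.00354). Mthfd2, a mitochondrial folate enzyme, had 30.5, 37.0, 49.9 and 26.3 in chow and 93.4, 109, 66.3 and 87.0 in treated hearts (1.30 ± 0.21, adjusted p = 0.00902). These were the 2 of 20 amino acid stress and one-carbon genes that passed, and the list's median was 0.21. Of 19 hypertrophy and stretch genes Gdf15 alone passed, although 18 lay above 0 and the median was 0.39. Nppa, atrial natriuretic peptide, had 441, 147, 607 and 562 in chow and 1540.4, 871, 363 and 382 in treated hearts. It was higher after treatment in males (2.18) and lower in females (-0.65), its groups overlapped, and the change was 0.77 ± 0.49 (adjusted p = 0.511). With 2 hearts per sex and group, its sex by treatment interaction was -2.83 ± 0.54 and did not pass (limma, adjusted p = 0.212). Nppb, at 0.41 ± 0.24, and Myh7, at 0.11 ± 0.06, did not pass. Atrial markers summed to 702 to 1812 in chow and 788 to 4694 in HFD+L-NAME hearts, and the part of atrial tissue in these values was not tested.

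Folding, clock, hypoxia and immediate early genes gave 1 or 2 calls per list. These were 3.33%, 4.17%, 10.5% and 7.69% of those tested, in that order, against 2.18% over all genes. Of 30 genes of the unfolded protein response Herpud1 alone passed (-0.34 ± 0.07, adjusted p = 0.0281) and lost its call without chow replicate 1, 2 or 4 or HFD+L-NAME replicate 1 or 3, and the list's median was -0.12 with 5 members above 0. Without HFD+L-NAME replicate 2 the list held 6 falls. Xbp1, at -0.21 ± 0.08, and the chaperone Hspa5, at -0.24 ± 0.07, did not pass. Of 24 clock genes Hlf alone fell (-0.48 ± 0.10, adjusted p = 0.0251) and lost its call without chow replicate 1, 2 or 4 or HFD+L-NAME replicate 3. Dbp, a clock output factor, had 107, 127, 213 and 603 in chow and 307, 64.7, 293 and 198 in treated hearts, a change of -0.15 ± 0.42 that turned positive without chow replicate 4 (0.24) or HFD+L-NAME replicate 2 (0.21) or 4 (0.05). Per2 changed by -0.43 ± 0.25. Among 19 hypoxia genes Egln3, a prolyl hydroxylase, rose by 0.70 ± 0.12 and lost its call without chow replicate 1 or 3. Hif3a, a member of the hypoxia-inducible factor family, had 47.7, 35.1, 38.2 and 63.4 in chow and 14.1, 21.2, 25.7 and 23.2 in treated hearts (-1.09 ± 0.23, adjusted p = 0.0325) and lost its call without chow replicate 1, 2 or 4 or HFD+L-NAME replicate 1, 3 or 4 (highest adjusted p = 0.121). Of 26 immediate early genes Fosl2 and Btg2 rose, by 0.52 ± 0.11 and 0.50 ± 0.10, with calls lost for Fosl2 without chow replicate 1, 2 or 3 or HFD+L-NAME replicate 3 and for Btg2 without chow replicate 2, 3 or 4 or HFD+L-NAME replicate 3 or 4. The immediate early list had a median of 0.35, with 22 members above 0. An unadjusted p under 0.05 was reached by 10 of them, against 15.3% of all genes tested. Of 6 aryl hydrocarbon receptor targets tested 0 passed in limma or limma voom (1 at an unadjusted p under 0.05). Their defining member Cyp1a1 was below the filter, with 10.2, 28.5, 0.979 and 29.2 in chow and 0, 0, 0.989 and 0 in treated hearts, where chow replicate 3 was as low as a treated heart, and without the filter the change was -3.32 ± 0.71, adjusted p = 0.0268.

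The fall with the smallest p was that of Ndrg4, a cytoplasmic protein abundant in heart and brain (chromosome 8, 95676980 to 95715119, plus strand). It had 3128, 2993, 3335 and 3864 in chow and 680.0, 815, 875 and 883 in treated hearts. The groups were far apart, and it fell by 2.03 ± 0.07 (adjusted p = 1.49e-08), with -2.04 in males and -2.03 in females. Sfr1, a partner of the DNA recombination machinery (chromosome 19, 47731682 to 47735588, plus strand), had 1888, 1881, 1969 and 1865 in chow and 759, 658, 743 and 680.4 in treated hearts (-1.42 ± 0.06, adjusted p = 2.23e-07). Unc5a, a netrin receptor, had 68.0, 101, 117 and 83.8 in chow and 59.7, 4.04, 4.95 and 3.87 in treated hearts. HFD+L-NAME replicate 1 stood just below the controls while the other treated hearts were near 0, the change was -3.24 ± 0.63 (adjusted p = 0.0218), and the call was lost without chow replicate 3 or 4 or HFD+L-NAME replicate 3 or 4 (highest adjusted p = 0.0938). Eps8l1, a relative of the actin regulator Eps8, had 114, 229, 112 and 154 in chow and 23.9, 17.2, 41.5 and 4.83 in treated hearts (-3.00 ± 0.47, adjusted p = 0.00693). Alox5, the enzyme that starts leukotriene synthesis, had 348, 366, 346 and 366 in chow and 198, 181, 193 and 171 in treated hearts (-0.94 ± 0.08, adjusted p = 0.000111). The actin cap Tmod4 changed by -0.92 ± 0.11 and Ramp1, a coreceptor for calcitonin gene-related peptide, by -1.12 ± 0.17. Further large falls were Scoc (-1.09), Spata6l (-1.07), Snapc1 (-0.97) and Mri1 (-0.88).

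Of 8 Schwann cell and neuron genes tested 1 fell, Sox10, and 0 rose, with a median of -0.42. Among falls outside that list, Lrrc4b, a synaptic adhesion protein, changed by -1.29 ± 0.20. Tubb3, a neuronal tubulin chosen after its value was seen, had 22.3, 33.2, 17.6 and 29.2 in chow and 2.17, 4.04, 1.98 and 1.93 in treated hearts (-2.91 ± 0.37). Sox10, a transcription factor of Schwann cells, had 63.0, 89.2, 39.2 and 45.8 in chow and 27.2, 21.2, 32.6 and 14.5 in treated hearts (-1.26 ± 0.27, adjusted p = 0.0307). It lost its call without chow replicate 1, 2, 3 or 4 or HFD+L-NAME replicate 1, 2 or 4 (highest adjusted p = 0.0999). The list summed to 1148 to 1339 in chow and 1064 to 1308 in HFD+L-NAME hearts, and the part of nerve content in these falls was not tested. Kcnip2, a subunit of the transient outward potassium channel chosen after its value was seen, changed by -0.36 ± 0.07 and was the only call among 44 Kcn genes, lost without chow replicate 1, 2 or 4 or HFD+L-NAME replicate 1 or 3. Of 9 Scn genes Scn4b, a sodium channel beta subunit chosen after its value was seen, rose by 0.64 ± 0.12 and 0 fell, with the call lost without chow replicate 3 or 4.

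Some of the largest rises lay outside fuel use as well. Chrna2, a nicotinic acetylcholine receptor subunit, had 39.6, 50.3, 52.9 and 46.8 in chow and 166, 206, 226 and 118 in treated hearts (1.86 ± 0.19, adjusted p = 0.000349). Cfap20dc (chromosome 14, 8431192 to 8666240, minus strand) had 59.9, 46.5, 46.0 and 47.8 in chow and 171, 207, 186 and 195 in treated hearts (1.91 ± 0.13, adjusted p = 8.25e-06). Wdfy1, an endosomal adaptor, had 75.2, 78.8, 73.4 and 70.2 in chow and 189, 324, 276 and 188 in treated hearts (1.66 ± 0.17, adjusted p = 0.000268). Rab4a, a GTPase of endosome recycling, rose by 1.55 ± 0.14, and groups did not overlap for any of these 4 genes. Fam107a, an actin-binding protein induced by glucocorticoids, rose by 1.05 ± 0.10. The 25 glucocorticoid and mineralocorticoid targets had 2 rises, Fam107a itself and Pdk4, 1 fall, Hif3a, and a median of -0.04.

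Of 130 processed pseudogenes 3 rose and 0 fell, 2.31% against 2.18% over all genes. Gm6123 had 8.12, 11.4, 8.81 and 11.7 in chow and 421, 503, 395 and 399 in treated hearts, a rise of 5.30 ± 0.16 (adjusted p = 4.72e-09). Rpl15-ps6 had 1.02, 1.90, 0.979 and 0.975 in chow and 109, 95.0, 153 and 117 in treated hearts (adjusted p = 4.85e-07), and Rpl15-ps2 had 0, 1.90, 0 and 0 and 59.7, 51.5, 59.4 and 64.8 (adjusted p = 4.66e-05). No fold is given for these 2 because the controls were at or near 0. Rpl15, their namesake and a protein of the large ribosomal subunit, had 1373, 1298, 1392 and 1326 in chow and 899, 1029, 1093 and 1039 in treated hearts (-0.41 ± 0.07, adjusted p = 0.00722). Reads of such copies may be assigned to either the gene or the copy, so these values are uncertain. Of 81 cytosolic ribosomal protein genes 2 fell, Rpl15 and Rpl30, and 0 rose, 2.47% against 2.18% over all genes. Among noncoding genes Gm32369, Gm24474 and Crnde changed by -2.52 ± 0.31, -2.39 ± 0.30 and -2.11 ± 0.26. Of 278 lincRNA genes 8 fell and 0 rose, 2.88% against 2.18% over all genes. Whether counting used the strand is not given in the sources used here, which leaves antisense and overlapping genes uncertain.

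The share of genes that passed varied between chromosomes. On chromosome 8, 16 genes rose and 25 fell of 757 tested, 5.42% against 2.18% over all genes. Among the autosomes and the X chromosome, chromosome 12 followed with 21 of 477 (4.40%), and chromosome 2 had 13 of 1080 (1.20%). Of 530 windows of 5 Mb, 351 held no gene that passed and 7 held at least 5. Chromosome 8 between 80 and 85 Mb held 3 rises and 8 falls among 57 genes tested, with Scoc, Mri1, Tecr and Nfix among them. On the same chromosome, 120 to 125 Mb held 5 rises and 3 falls among 74, with Tubb3 and Rab4a. Its stretch from 90 to 95 Mb held 2 rises and 5 falls among 40, with Herpud1, Mmp2, Cx3cl1 and Crnde. Chromosome 12 between 70 and 75 Mb held 7 among 33, with Snapc1, Gm32369 and Gm24474. Between 5 and 10 Mb of chromosome 14, Cfap20dc and Fam107a lay with Abhd6 and Pdhb, 4 of 10 tested. Ndrg4 lay with Got2 among 4 of 16 between 95 and 100 Mb of chromosome 8. These windows were chosen after their values were seen. The share that passed was 1.08% of genes with a mean of 10 to 50 counts and 6.51% of the 338 genes with the highest means.

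**Figure D4:**
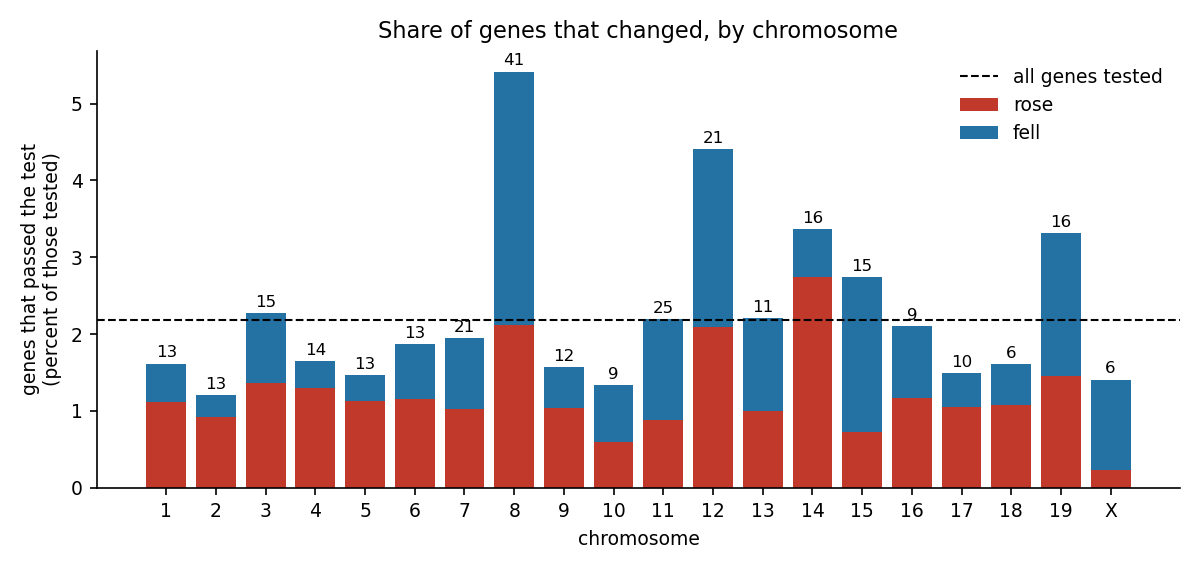
Percent of tested genes that rose (red) or fell (blue) on each autosome and the X chromosome, with the number of genes that passed above each bar and the share over all genes dashed. Chromosome 8 stands highest with 41 genes.

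Families defined by symbol differed in their share of calls, which was 2.18% over all genes tested. Glutathione transferases had 1 rise and 3 falls among 18 genes (22.2%). Adam and Adamts proteases had 3 rises and 1 fall among 32 (12.5%), and mitochondrial Slc25 carriers 3 rises among 39 (7.69%). Of 166 Tmem genes, 53 translation initiation genes and 48 proteasome genes 0 passed in limma. An unadjusted p under 0.05 was reached by 22, 5 and 3 of them, against 15.3% of all genes tested.

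The response was compared between the sexes. The sex by treatment interaction passed for 1 of 13801 genes (0.00725%), while 916 (6.64%) had an unadjusted p under 0.05. The gene was Mki67, a marker of dividing cells, with 155, 127, 33.3 and 32.2 in chow and 98.9, 107, 125 and 117 in treated hearts. The chow females were the low hearts. The change was -0.45 in males and 1.85 in females, a difference of 2.30 ± 0.25 (adjusted p = 0.0155). Of 29 cell cycle genes 0 had a treatment call in limma or limma voom. In the treatment test 2 had an unadjusted p under 0.05, against 15.3% of all genes tested. Ptgds (-2.26 ± 0.32, adjusted p = 0.120) and mt-Co2 (-2.17 ± 0.36, adjusted p = 0.212) had the smallest p among genes with a lower female change and did not pass. The genes with a higher female change numbered 19 without HFD+L-NAME replicate 1, 0 without chow replicate 1 or 4, 2 without chow replicate 2 or 3 or HFD+L-NAME replicate 4 and 3 without HFD+L-NAME replicate 3. Those with a lower female change numbered 28 without HFD+L-NAME replicate 1, 8 without HFD+L-NAME replicate 4, 2 without HFD+L-NAME replicate 3 and 1 without chow replicate 1 or 3 or HFD+L-NAME replicate 2.

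The diet model was set against db/db+Aldo hearts, each against its own controls. Of 13589 genes tested in both, the change was higher in the diet model for 317 (2.33%) and lower for 415 (3.05%), 5.39% in all. With total-count scaling these numbers were 1168 and 176 and with no size factors 434 and 99, where the median difference of all genes was 0.23 and 0.22 on the log2 scale. In db/db+Aldo hearts 1532 of the 13589 genes rose and 1574 fell, 22.9% together. Of 160 rises of the diet model, 74 also rose there, 14 fell, and the difference between models passed for 54. Of 138 falls, 30 also fell, 22 rose, and the difference passed for 68. These genes were selected by their change in the diet model, which is part of the difference, so the counts of 54 and 68 are a description. Angptl4 changed there by 2.56 ± 0.41, Pdk4 by 1.52 ± 0.31, Chrna2 by 2.54 ± 0.25 and Wdfy1 by 1.79 ± 0.12, and for these 4 the difference did not pass. Their differences were -0.28 ± 0.70, 0.38 ± 0.52, -0.68 ± 0.42 and -0.13 ± 0.20.

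Other genes parted between the models. Ndrg4 rose in db/db+Aldo hearts by 0.54 ± 0.07, and the difference was -2.57 ± 0.11 (adjusted p = 7.37e-14). Sfr1 changed there by 0.13 ± 0.05, a difference of -1.55 ± 0.08 (adjusted p = 1.76e-12). Hif3a and Ramp1 rose there by 1.79 ± 0.20 and 1.27 ± 0.18, with differences of -2.88 ± 0.33 (adjusted p = 7.67e-06) and -2.39 ± 0.31 (adjusted p = 5.53e-05). Cfap20dc changed there by -1.42 ± 0.19, a difference of 3.33 ± 0.31 (adjusted p = 3.2e-07). Gm6123 changed there by 0.02 ± 0.14, a difference of 5.28 ± 0.24 (adjusted p = 7.37e-14). Hr, a corepressor of nuclear receptors that was not called in the diet model, differed by 1.54 ± 0.17 (adjusted p = 3.24e-06).

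**Figure D5:**
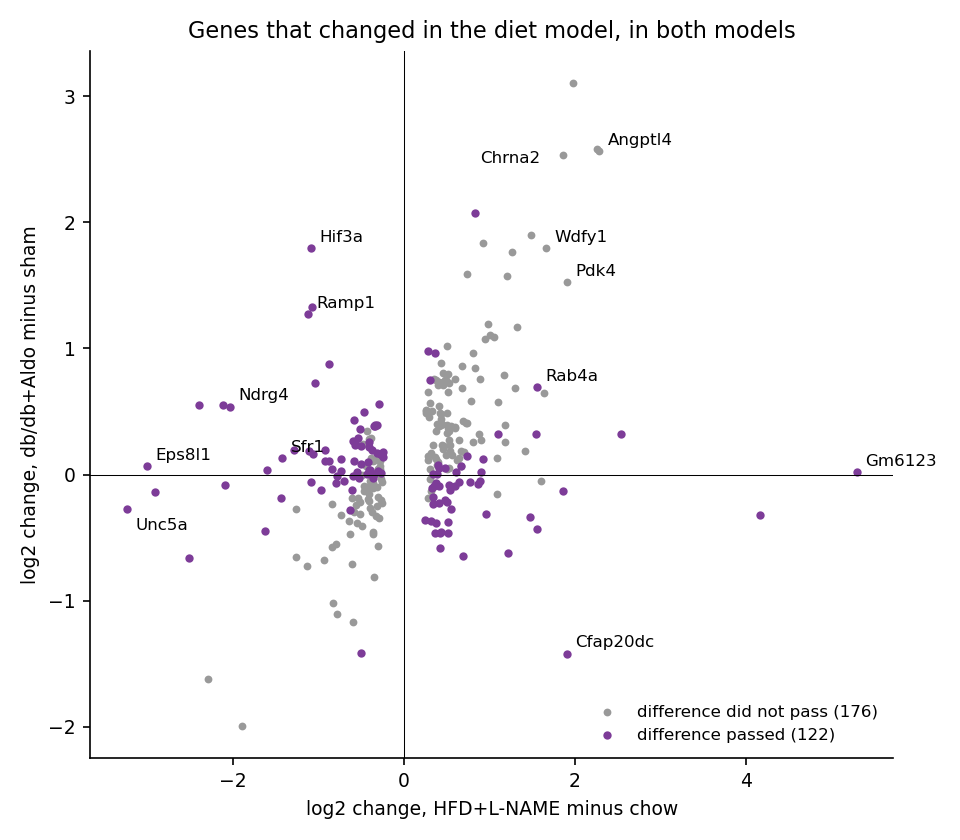
Log2 change in the diet model (horizontal axis, HFD+L-NAME minus chow) and in db/db+Aldo hearts (vertical axis, db/db+Aldo minus sham) of the called genes tested in both. Purple points are those for which the difference between models passed. Angptl4 and Pdk4 lie high in both, while Ndrg4, Hif3a, Ramp1 and Cfap20dc have opposite signs.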

How the data were processed

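RNA of whole hearts was sequenced as poly(A) paired-end libraries. Per the submitters' processing notes the tools included limma, DESeq2 and featureCounts, with mm10 and GRCm38 as builds, without roles or versions. The authors deposited a batch-corrected table of 55487 genes and, per comparison, a table whose mean signal is the average of counts divided by size factors, with a log2 fold change and its standard error and an unadjusted and adjusted p-value, per the file headers. The table had been taken for normalised expression. Its values proved to be whole counts minus a shift for each gene and run, so counts were recovered through the authors' mean signal (whole for 100% of 52390 genes, tolerance 0.001, with 3097 genes left out). They were divided by the size factors, and log2(count + 1) was tested in R 4.3.3 by limma 3.58.1, allowing a variance trend and adjusting for sex, with Benjamini-Hochberg correction at 0.05, for genes with a mean of at least 10. The fold changes are on that scale and understate changes of low genes. The interaction of sex and treatment used 4 sex-by-group means, and the difference between models used all 23 libraries, with sex within each run.

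Counts were recovered and exact tests enumerated in Python 3.11.15 (pandas 2.3.3, numpy 2.4.6), and plots used matplotlib 3.10.9. Gene positions are those of GENCODE M21 (GRCm38). In simulated counts for 13695 genes, the treatment test recovered 74% of 50 genes changed by 1.5-fold and 90% of 50 changed by 2-fold. False calls there numbered 8. Whether these shares hold at the gene-to-gene spread of the real hearts was not tested. No pair of replicates had a chi-square per gene under 9.80, and each was counted as its own sample. The members, the 40 gene lists and the 59 symbol families were chosen with earlier results of these data known. Genes were named by rule: the 12 largest rises and falls with a mean of at least 50 and no overlap, the 3 most significant called members of each list, the 3 most significant noncoding or predicted genes per direction, and 15 genes in any case, with others marked as chosen after their values were seen. A few of the genes so picked are left out of the text. The 21 alternatives covered pseudocounts, filters, scaling, fits and leaving out each library.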

Additional observations from a re-analysis of the deposited data

Results flagged for a closer look

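In 10 of 152 groups of 4 hearts tested, a single heart stood apart by Dixon's criterion, which chance alone flags in about 5% of groups. HFD+L-NAME replicate 1 was high for Unc5a, at 59.7 normalised counts against 3.87 to 4.95 in the other treated hearts, for Scd4, at 424 against 312 to 328, and for Ighm, at 309.6 against 186 to 204. HFD+L-NAME replicate 2 was high for Gdf15, at 163 against 68.3 to 80.4, and for Me1, at 2755 against 2427 to 2464. HFD+L-NAME replicate 3 was high for Lrrc4b, at 213 against 130.4 to 138, and low for Spata6l, at 109.8 against 138 to 142.5. Chow replicate 1 was high for Cfap20dc, at 59.9 against 46.0 to 47.8. Chow replicate 2 was high for Rpl15-ps6, at 1.90 against 0.975 to 1.02, and for Rpl15-ps2, at 1.90 against 0 in the other controls. The treatment change of Mki67 differed between the sexes by 2.30 on the log2 scale.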

How the results depend on the processing

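The number of rises (163) was 106 with no size factors, 37 with no variance trend, 101 with no sex covariate, 94 with the deposited values after setting those below 0 to 0, and 82 to 170 when a library was left out. The number of falls (138) was 30 with no variance trend, 85 with no sex covariate, 92 with all 23 libraries in 1 fit, and 60 to 137 when a library was left out. The sex interaction, with 1 gene higher in females, gave 0 with no filter, no variance trend or limma voom, and leaving out a library gave 0 to 19 higher and 0 to 28 lower. The difference between models (317 higher, 415 lower) became 1168 and 176 with total-count scaling, 434 and 99 with no size factors, and 188 higher with the replicate block. The change of Dbp, which did not pass, was 0.24 without chow replicate 4, 0.21 without HFD+L-NAME replicate 2 and 0.05 without HFD+L-NAME replicate 4, within a range of -0.68 to 0.24. Of 63 named genes that passed, 27 did so under every alternative that gave a value, 16 lost the call in 1 to 5 and 20 in more than 5. The causes were not tested. Same-numbered hearts correlated at 0.114, 0.0930, 0.116 and 0.385 in their deviations from group means, in which males and females also differ, and at -0.0953 for numbers 1 and 2 and 0.236 for numbers 3 and 4 once sex was taken into account. As 1 of the 4 did not exceed 0.1, and the labels give no shared litter or day, the numbers were not used as pairs. Of the 8 libraries, 4 were closest to their own number in the other group. With the replicate block 111 genes rose and 95 fell, and 15 of the 63 named genes did not pass. Among these were Postn, Cd68, Laptm5, Lgals3, Tie1, Slc4a1, Sox10, Hif3a, Herpud1, Ifit3, Ighm, Nnat and Fosl2. The depth limits what can be said of genes under a mean of 10.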
